A study of Mus musculus with 8 samples.

Results

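The Schlafen (Slfn) genes are a family of interferon-inducible genes of mammals, and 7 members were taken by symbol from the deposited counts of 47937 genes: Slfn1, Slfn2, Slfn3, Slfn4, Slfn5, Slfn8 and Slfn9. Their RNA was followed in mature CD8 single-positive (CD8SP) thymocytes, sorted as TCRb+ MHC-I high cells from the thymus of mice aged 6 to 7 weeks. The 4 Ndrg3ctrl libraries came from Ndrg3 +/fl;Lck-cre+ mice and the 4 Ndrg3TKO libraries from Ndrg3 fl/fl;Lck-cre+ mice, each labelled as a biological replicate. Both groups carried the Cre transgene, which the proximal Lck promoter drives in developing T cells, and the controls kept 1 allele that Cre cannot delete, so the comparison was of homozygous with heterozygous deletion. Fewer cells of a type and less RNA per cell cannot be told apart in such bulk samples.

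Schlafen proteins share an N-terminal core with a putative ATP-binding region and were first described in thymocytes, where their RNA changes as T cells mature. They are commonly grouped by length. Slfn1 and Slfn2 are the short members, Slfn3 and Slfn4 have an added linker region, and Slfn5, Slfn8, Slfn9 and Slfn14 are long and end in a helicase-like domain. Slfn2 is needed for T cells to stay quiescent and to survive activation, and its protein binds transfer RNA and shields it from cleavage. Type I interferon raises the transcription of many members.

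Library totals ran from 21126698 to 32668081 counts, so that 3 counts stood for 0.0918 to 0.142 counts per 1000000 counts of the library (CPM). The CPM values below are on library sizes scaled by TMM, edgeR's trimmed mean of M-values. Ndrg3 was present at 80.7 ± 1.00 CPM in Ndrg3ctrl and 51.8 ± 3.01 CPM in Ndrg3TKO (SD, n = 4), and no Ndrg3TKO library reached the control range (log2 fold change -0.64, SE 0.0526, adjusted p = 1.04e-05 by edgeR's quasi-likelihood test). Reads of the undeleted exons are still counted, so this fall does not measure the loss of protein. The 8 markers of CD8SP thymocytes, among them Cd3e, Cd8a and Cd8b1, summed to 5913 to 6631 CPM in Ndrg3ctrl and 6173 to 6569 CPM in Ndrg3TKO. Y-linked transcripts (Ddx3y, Uty, Kdm5d and Eif2s3y) reached 353 to 413 CPM in 3 libraries, Ndrg3ctrl replicate 2 and Ndrg3TKO replicates 2 and 3, and stayed at or under 0.0731 CPM in the other 5. The labels do not give the sex of the mice.

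All 7 members lie in 1 cluster on chromosome 11, which holds 10 annotated Schlafen genes between positions 82942341 and 83286726 of GRCm38, a span of 344.4 kb. From low to high coordinate the members run Slfn5 (82951349 to 82964840), Slfn9 (82978390 to 82991830), Slfn8 (83002158 to 83020810), Slfn2 (83065112 to 83070678), Slfn1 (83116849 to 83122670), Slfn4 (83175186 to 83190216) and Slfn3 (83191330 to 83215154). Slfn8 and Slfn9 are on the minus strand and the other 5 members on the plus strand. The remaining entries are the pseudogene Slfn10-ps, the antisense gene Slfn5os and Slfn14.

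The promoters of the members divided by short motifs, and they are shown here because the long and the shorter members differed in them. Windows of 250 bases before to 50 bases after the start were read from RefSeq (GRCm38.p6), where 9 of the 10 genes had an entry. The interferon-stimulated response element, a DNA site common in promoters of interferon-induced genes, was searched in a reduced form on both strands, as GAAA, any 2 bases and GAAA again (TTTC, any 2 bases and TTTC on the other strand). It was found in Slfn5, Slfn8 and Slfn9 and in no other member's window, against 3.49% of 27025 promoters. The promoters follow 5′ to 3′ in the direction of the gene, with the match in capitals.
Slfn5, chr11:82951852-82952151, plus strand: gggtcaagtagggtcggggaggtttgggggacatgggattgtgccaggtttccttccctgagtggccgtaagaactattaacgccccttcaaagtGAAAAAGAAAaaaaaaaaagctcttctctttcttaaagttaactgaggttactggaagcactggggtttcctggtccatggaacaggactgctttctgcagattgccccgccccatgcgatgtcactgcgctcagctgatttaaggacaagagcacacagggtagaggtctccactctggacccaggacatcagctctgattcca
Slfn8, chr11:83020761-83021060, minus strand: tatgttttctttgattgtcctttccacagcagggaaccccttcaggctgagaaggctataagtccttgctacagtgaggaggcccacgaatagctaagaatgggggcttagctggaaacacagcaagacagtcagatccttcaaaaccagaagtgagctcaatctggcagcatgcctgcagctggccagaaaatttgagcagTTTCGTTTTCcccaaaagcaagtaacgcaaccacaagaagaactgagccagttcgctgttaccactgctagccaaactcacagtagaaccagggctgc
Slfn9, chr11:82991781-82992080, minus strand: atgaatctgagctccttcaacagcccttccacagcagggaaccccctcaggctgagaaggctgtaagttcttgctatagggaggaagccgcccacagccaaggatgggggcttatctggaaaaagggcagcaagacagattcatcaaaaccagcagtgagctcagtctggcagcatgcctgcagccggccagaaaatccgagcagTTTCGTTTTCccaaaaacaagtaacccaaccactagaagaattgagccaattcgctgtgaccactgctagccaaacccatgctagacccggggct
The match began 155 bases before the start in Slfn5, 48 in Slfn8 and 45 in Slfn9. RefSeq lists 2 starts for Slfn8, and from the other one the same match lies 136 bases upstream. The start of Slfn5 in RefSeq lies inside the gene as GENCODE draws it. Slfn8 and Slfn9 carried the same letters, TTTCGTTTTC, and their windows were identical at 252 of 312 aligned columns (80.8%), whereas no other pair of windows in the cluster exceeded 53.0%.

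The other 4 members held a different motif. The sequence CAGGAAGT (ACTTCCTG on the other strand), built around the GGAA core that ETS-family factors bind, was present in Slfn1, Slfn2, Slfn3 and Slfn4, in none of Slfn5, Slfn8 and Slfn9, and in 3.38% of all promoters. These letters were picked after the promoters had been read, so their division of the family is a description. The 28-base windows around the matches, in the direction of the gene and with the match in capitals, were as follows.
Slfn1, chr11:83116736-83116763, plus strand: gatgtctcacACTTCCTGgagtgacatc
Slfn2, chr11:83065047-83065074, plus strand: cagggctttcACTTCCTGgagggtgaca
Slfn4, chr11:83175103-83175130, plus strand: ttccggttatACTTCCTGgagtgacgaa
Slfn3, first match, chr11:83191260-83191287, plus strand: cggagctgggCAGGAAGTggatgacaga
Slfn3, second match, chr11:83191278-83191305, plus strand: ggatgacagaACTTCCTGggggagggac
The matches began 74 bases before the start in Slfn1, 55 in Slfn2, 73 in Slfn4, and 60 and 42 in Slfn3, where they point in opposite directions. The matches in Slfn1, Slfn2 and Slfn4 are all read as ACTTCCTG. The window of Slfn14, the long gene at the other end of the cluster, held neither motif. A TATA motif (TATAAA or TTTATA), present in 14.2% of promoters, was found among the members in Slfn4 only, 19 bases before its start. A match is a run of letters and not a measured binding site.

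Levels were compared between genes per length, as RPKM, the reads per kilobase of exon divided by the library size as in CPM. Slfn2 and Slfn1 were the most abundant members, at 120.5 ± 11.1 and 101.7 ± 8.85 RPKM over the 8 libraries, above 97.9% and 97.4% of the tested genes. Slfn8 followed at 47.3 ± 2.93 RPKM and Slfn5 at 15.1 ± 2.16 RPKM, above 93.7% and 75.3% of the tested genes. Slfn3 (3.30 ± 0.372 RPKM) and Slfn9 (2.77 ± 0.230 RPKM) stood above 35.3% and 31.8%. Slfn4, at 0.0575 ± 0.0277 RPKM, was close to undetected.

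The order held between most neighbours. Slfn2 exceeded Slfn1 in all 8 libraries, by 1.04 to 1.30 times, although their ranges across libraries overlapped. Slfn3 exceeded Slfn9 in 7 of 8 libraries, with a ratio of 0.973 to 1.497, and these also overlapped in range. The other steps in the order, from Slfn1 to Slfn8, Slfn8 to Slfn5, Slfn5 to Slfn3 and Slfn9 to Slfn4, showed no overlap. Slfn8 was present at 17.2 ± 1.45 times the level per length of Slfn9 (SD over 8 libraries, range 14.6 to 19.5), although these 2 genes had the most similar promoter windows of the cluster. The short members Slfn1 and Slfn2 together with Slfn8 made up 91.9 to 93.6% of the summed level of the 7 members in every library.

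**Figure D1:**
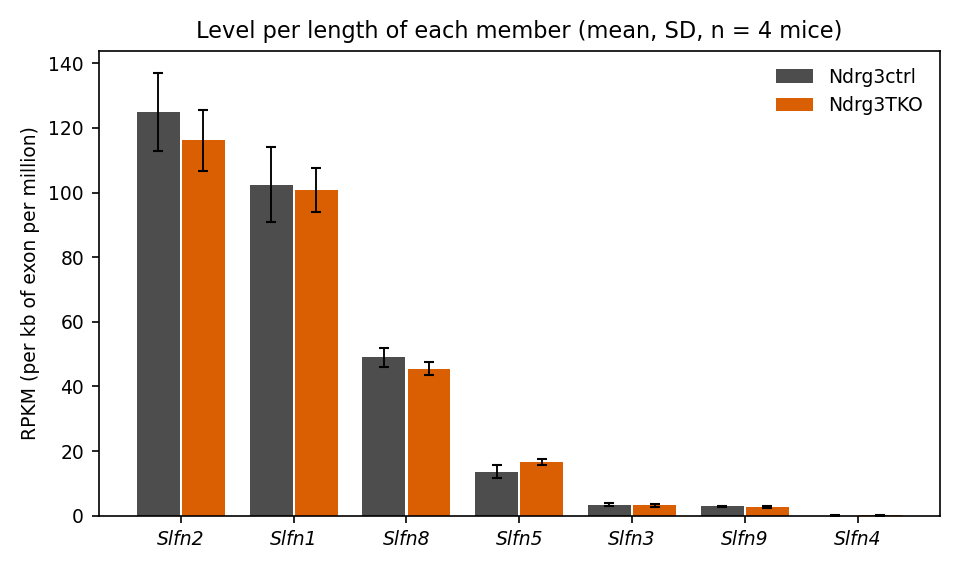
Level per length of each member in RPKM on a linear axis, with bars for the mean of the 4 Ndrg3ctrl (grey) and 4 Ndrg3TKO (orange) mice and error bars for the SD. Slfn2 and Slfn1 stand near 100 RPKM or above, Slfn8 near 47, Slfn5 near 15, and Slfn3, Slfn9 and Slfn4 at under 4 RPKM.

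The question put to the family was whether loss of Ndrg3 from thymocytes altered its RNA at the stage before CD8 T cells leave the thymus. Of the 7 members, 6 passed the filter on low counts and 0 were called by edgeR at an adjusted p under 0.05, where 1.15% of 14633 tested genes were called, 0.793% higher and 0.355% lower in Ndrg3TKO. DESeq2 also called 0 members, and it called 1.93% of its 16037 tested genes. At an unadjusted p under 0.05, 1 member passed by either tool, Slfn5. By edgeR 10.9% of the 14633 tested genes passed. By DESeq2 6.44% passed, of the 24676 genes to which it gave an unadjusted p. No tested member had groups that did not overlap in CPM, which 7.04% of tested genes had. Slfn5 had a positive log2 fold change and the other 5 a negative one, and the median over the 6 was -0.11 beside -0.00330 over all tested genes, of which 48.8% were positive.

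**Figure D2:**
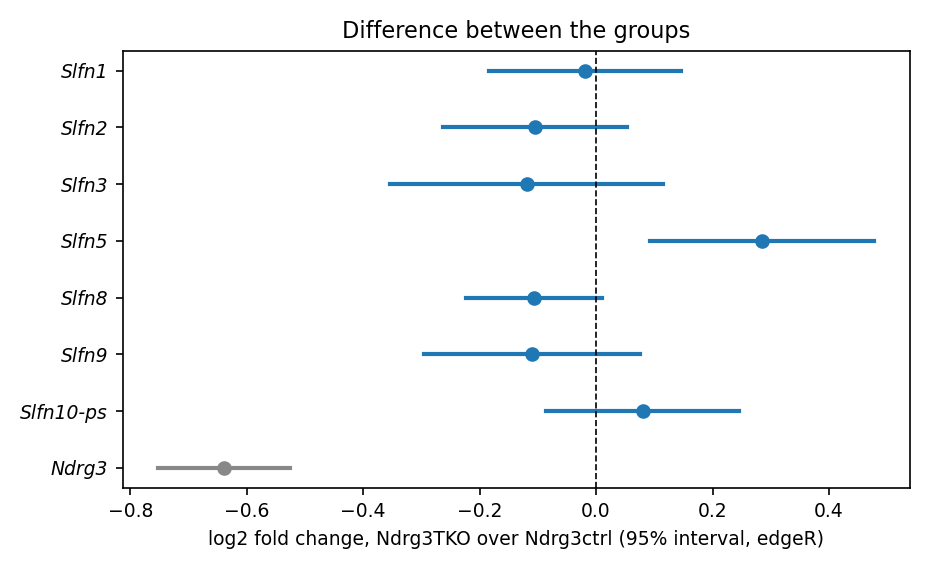
Log2 fold change of Ndrg3TKO over Ndrg3ctrl with its 95% interval from edgeR for the 6 tested members, the pseudogene Slfn10-ps and Ndrg3. Of the Schlafen genes only Slfn5 has an interval that does not include 0, from 0.09 to 0.48, and Ndrg3 lies at -0.64.

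Slfn2, the quiescence factor, measured 222, 227, 184 and 198 CPM in Ndrg3ctrl replicates 1 to 4 and 191, 215, 178 and 189 CPM in Ndrg3TKO. Of the Ndrg3TKO libraries, 3 lay within the control range and replicate 3 below it. The log2 fold change was -0.10 (SE 0.0735, 95% interval -0.26 to 0.05, adjusted p = 0.652).

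Slfn1, whose forced expression in thymocytes is known to hold back T cell growth, measured 192, 216, 163 and 193 CPM in Ndrg3ctrl and 170.4, 201, 191 and 190.0 CPM in Ndrg3TKO. The Ndrg3TKO values all fell within the control range. The log2 fold change was -0.02 (SE 0.0767, interval -0.18 to 0.15, adjusted p = 0.955), and its sign turned without Ndrg3ctrl replicate 2 (0.04) or Ndrg3TKO replicate 1 (0.02). The intervals of Slfn1 and Slfn2 together covered folds from 0.834 to 1.11.

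Slfn8, a long member linked in mice to autoimmune disease, measured 192, 210, 189 and 211 CPM in Ndrg3ctrl and 174, 190, 190 and 191 CPM in Ndrg3TKO. Ndrg3TKO replicate 1 was the lowest library, and the other 3 lay within the lower end of the control range. The log2 fold change was -0.11 (SE 0.0546, interval -0.22 to 0.01, adjusted p = 0.516). Slfn9, another long member with the same promoter motif, as Slfn5 also is, measured 16.5, 17.3, 18.9 and 15.8 CPM against 14.3, 17.1, 16.6 and 15.5 CPM. The groups overlapped again, at a log2 fold change of -0.11 (SE 0.0864, interval -0.29 to 0.08, adjusted p = 0.694).

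Slfn3, an intermediate member, measured 11.03, 10.5, 11.8 and 13.5 CPM in Ndrg3ctrl and 10.5, 12.1, 9.25 and 11.4 CPM in Ndrg3TKO. The highest library was a control and the lowest an Ndrg3TKO library, and the rest mixed (log2 fold change -0.12, SE 0.110, interval -0.35 to 0.12, adjusted p = 0.745).

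Slfn4, known from macrophages and other myeloid cells, was counted 3, 3, 6 and 7 times in Ndrg3ctrl and 3, 13, 9 and 10 times in Ndrg3TKO. It failed the filter, and 6 of the 8 libraries held under 10 counts. The pooled counts, 19 against 35, gave an Ndrg3TKO over Ndrg3ctrl ratio of 1.59 with an exact interval of 0.883 to 2.94 that covers counting error only. Without the filter its log2 fold change was 0.65 (interval -0.41 to 1.71, adjusted p = 0.723). The 8 myeloid markers summed to 1.11 to 2.16 CPM in Ndrg3ctrl and 1.23 to 1.44 CPM in Ndrg3TKO, with S100a9 at 0 in every library.

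**Figure D3:**
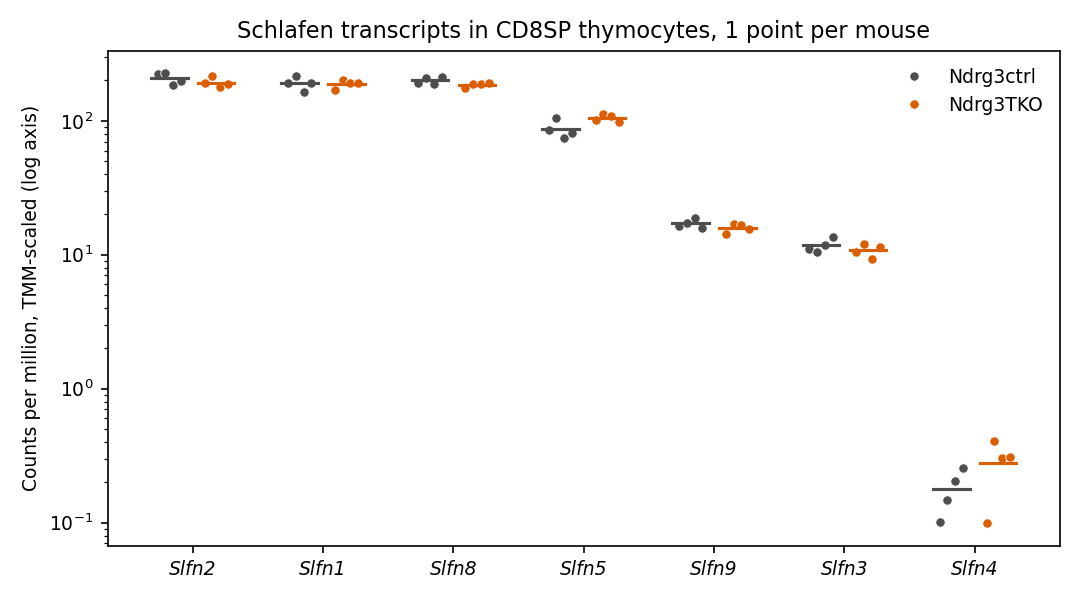
TMM-scaled CPM of each member in every library on a log axis, with grey points for Ndrg3ctrl, orange points for Ndrg3TKO and a line at each group mean. The groups overlap for all 7 members, and for Slfn5 3 of the 4 grey points lie below all the orange ones.

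Slfn5, an interferon-inducible nuclear member, was the one tested member with a higher mean in Ndrg3TKO, though not past the adjusted threshold. It measured 85.1, 104, 73.8 and 81.5 CPM in Ndrg3ctrl and 101, 112, 108 and 98.5 CPM in Ndrg3TKO. Of the 4 controls, 3 lay below every Ndrg3TKO library, and Ndrg3ctrl replicate 2 lay between the Ndrg3TKO values. The means were 86.2 ± 12.9 and 105 ± 6.25 CPM (SD, n = 4). This was a fold of 1.22 (interval 1.07 to 1.39) and a log2 fold change of 0.29 (SE 0.0885, adjusted p = 0.207 by edgeR). By its unadjusted p Slfn5 ranked 503 among the 14633 tested genes.

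Ndrg3ctrl replicate 2 is the control library with Y-linked counts and also the shallowest of the 8. Among the 3 libraries with Y-linked counts, Slfn5 measured 104 CPM in the control and 108 and 112 CPM in Ndrg3TKO. Among the 5 without, it measured 73.8 to 85.1 CPM in the 3 controls and 98.5 and 101 CPM in Ndrg3TKO. Slfn5 was thus higher in Ndrg3TKO in both strata, and higher in the libraries with Y-linked counts within each genotype, of which 1 was a control. Slfn1 was also higher in those libraries, at 215.8 against 162.9 to 192.6 CPM in Ndrg3ctrl. In Ndrg3TKO it measured 191.4 to 200.8 against 170.4 to 190 CPM. The other tested members did not separate this way in both genotypes. With the Y-linked level as a covariate the log2 fold change of Slfn5 was 0.23 (SE 0.0591, adjusted p = 0.0514), where 2.84% of genes were called. Over the 5 libraries without Y-linked counts, an alternative chosen after seeing the data, it was 0.31 (SE 0.0724, adjusted p = 0.0718). Without Ndrg3ctrl replicate 2 it was 0.38 (SE 0.0634, adjusted p = 0.00587), past the threshold, where 0.901% of genes were called. The call on Slfn5 changed under 2 of 16 alternatives, the omission of that control library being 1 of them. Over the 16 the adjusted p ran from 0.00587 to 0.417 with a positive log2 fold change in each.

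Slfn5 was also measured within each library against its own family. It held 4.44, 5.06, 4.45 and 4.39% of the summed RPKM of the 7 members in Ndrg3ctrl and 5.89, 5.75, 6.14 and 5.49% in Ndrg3TKO. The lowest Ndrg3TKO share was above the highest control share, with or without Y-linked counts, while the shares of the other 6 members overlapped between the groups. Slfn1, Slfn2 and Slfn8, which make up most of the sum, had log2 fold changes of -0.02, -0.10 and -0.11, none of them called. Set against the same sum, 3.93% of all tested genes had groups that did not overlap. This share was looked at after the values of Slfn5 were known and was not tested. The shares of Slfn1 were 34.5 ± 1.05 and 35.4 ± 1.30%, and those of Slfn2 42.1 ± 1.46 and 40.7 ± 1.93% (SD, n = 4).

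**Figure D4:**
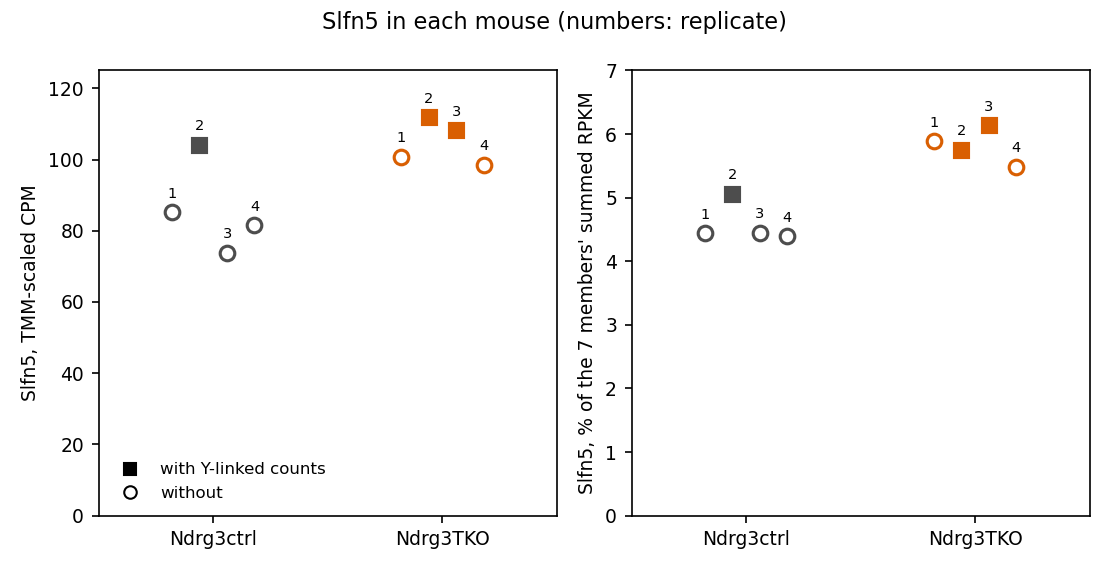
Slfn5 in each library, as CPM (left) and as a percentage of the summed RPKM of the 7 members (right), with squares for the 3 libraries with Y-linked counts, circles for the 5 without, and the replicate number above each point. The CPM of Ndrg3ctrl replicate 2 reaches into the Ndrg3TKO range, and the shares run from 4.39 to 5.06% in Ndrg3ctrl and 5.49 to 6.14% in Ndrg3TKO.

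The spread between mice exceeded counting error for the abundant members. For Slfn2 the SD between libraries was 9.71% of the mean in Ndrg3ctrl and 8.18% in Ndrg3TKO, beside a counting error of 1.47% at its lowest count. For Slfn5 they were 14.97% and 5.96%, beside 2.17%. Slfn3 and Slfn9, with 214 to 385 and 353 to 558 counts per library, had a counting error of 6.84% and 5.32% at their lowest count, which is nearer to their spreads of 11.1 to 11.3% and 7.81%.

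Family members resemble one another in sequence, and how reads with several matches were counted is not given in the sources used here. Of the 50-base stretches of exon, 16.0% in Slfn3, 14.6% in Slfn8, 11.9% in Slfn9, 11.3% in Slfn4 and 11.1% in Slfn5 also occur in another gene, but 4.27% in Slfn2 and 0.606% in Slfn1. For Slfn8 the partners were Slfn9 and Slfn10-ps, and Slfn3 shared 7.39% of its stretches with Slfn4. At 100 bases the share was at most 3.71% in any member other than Slfn5, where it was 6.4%. Among the Schlafen genes, Slfn5 shared stretches with Slfn5os only. That gene held 467 of the 700 shared stretches of Slfn5 at 50 bases and 388 of 403 at 100 bases. Slfn5os runs antisense to Slfn5, shares 559 exon bases with it and had 0 to 2 counts per library. The library kit keeps strand, but the strand setting of the counting is not given in the sources used here. Reads of the bases that the 2 genes share therefore cannot be told apart. Slfn5os has 1102 exon bases, of which 559 are shared with Slfn5 and 151 with Unc45b. Its 0 to 2 counts per library stand beside 2120 to 3562 for Slfn5.

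The other Schlafen genes gave no call by edgeR. The pseudogene Slfn10-ps measured 30.4 ± 3.03 CPM in Ndrg3ctrl and 32.1 ± 1.92 CPM in Ndrg3TKO (log2 fold change 0.08, adjusted p = 0.759). Slfn14, a long member known from the red cell and platelet lineages, had 0 counts in all 8 libraries, which allows up to 0.0918 to 0.142 CPM. Slfnl1, a Schlafen-like gene outside the cluster, had 6 to 19 counts per library (log2 fold change -0.18, adjusted p = 0.908).

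Genes around the cluster were compared with it by position. Of 61 genes lying within 500 kb of the cluster, its own included, 28 were tested, 21 of them not Schlafen genes. Of these 21, 1 was called, Ccl5, a chemokine of effector T cells, beside 1.15% of all tested genes. Its log2 fold change was -2.39 (adjusted p = 6.03e-04 by edgeR), at a low mean level of 0.737 CPM over the libraries. The median over the 21 was 0.02, and 13 had a positive sign. Slfn5 is the member nearest the low-coordinate end of the cluster, and Ccl5 lies beyond the opposite end.

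**Figure D5:**
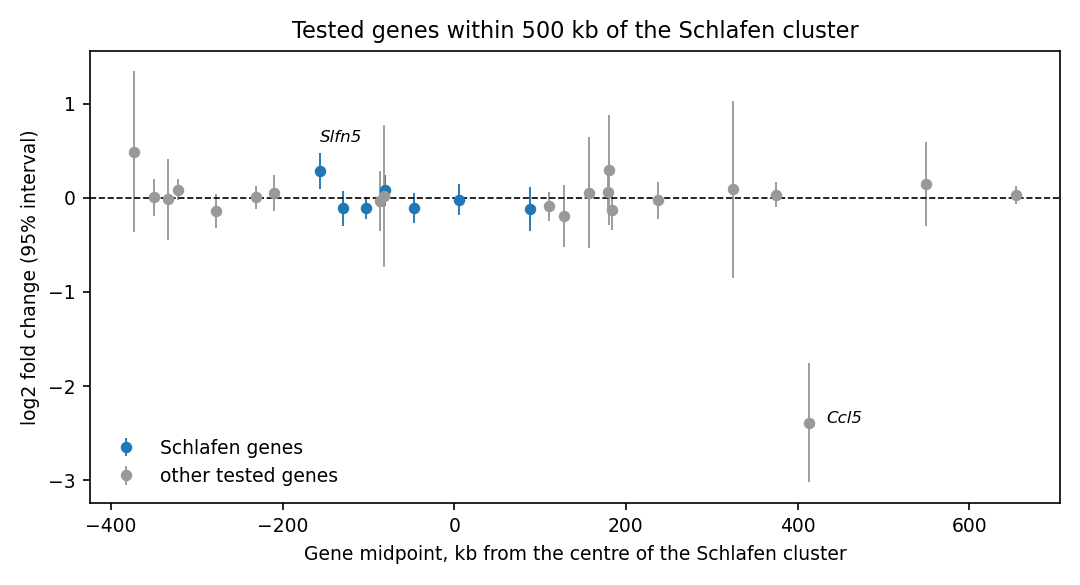
Log2 fold change with its 95% interval against the distance in kb from the centre of the cluster for the 7 tested Schlafen genes (blue) and 21 tested neighbours (grey). Ccl5 at -2.39, with a mean of 0.737 CPM, stands apart, and the Schlafen genes lie between -0.12 and 0.29.

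Genes of 6 chosen lists, on interferon, quiescence, proliferation, transfer RNA and late thymocyte maturation, were counted next, and 0 of them were called by edgeR in any list. The type I interferon pathway, from receptor to transcription factor, had 11 tested genes, 1 of them at an unadjusted p under 0.05, and a median log2 fold change of -0.02. Its genes with the smallest p were the receptor chain Ifnar2 (0.12, adjusted p = 0.384) and the signalling inhibitor Socs1 (0.14, adjusted p = 0.575). Of 31 interferon-stimulated genes, 25 had a negative sign, the median was -0.11, and 8 (25.8%) had an unadjusted p under 0.05, all 8 with a negative sign, beside 10.9% of all tested genes. The smallest p were those of Oas3, an RNA sensor that starts RNA decay (-0.26, adjusted p = 0.145), and Ifit2, which binds foreign RNA (-0.24, adjusted p = 0.195). DESeq2 called 0 of either list. The log2 fold change of Slfn5 was thus of the opposite sign to most of these genes, while those of the other 5 tested members had the sign that most of them had. The difference between Slfn5 and the list was not tested.

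The counts of the next 3 lists also stand beside the 10.9% of all tested genes with an unadjusted p under 0.05. Of the 16 genes tied to quiescence of naive T cells, 3 passed at that level and the median was 0.01, with the transcription factors Klf2 (-0.26, adjusted p = 0.130) and Foxo1 (0.15, adjusted p = 0.342) at the smallest p and with opposite signs. The 12 D cyclins and proliferation genes all had a negative sign, with a median of -0.14, and 2 had an unadjusted p under 0.05. These were Ccnd1 (-0.84, adjusted p = 0.398), at no more than 0.503 CPM in any library, and Myc (-0.23, adjusted p = 0.428). Of 7 tested genes of transfer RNA cleavage and protection, the process on which Slfn2 acts, 2 had an unadjusted p under 0.05 and the median was -0.05. Both encode enzymes that methylate transfer RNA, Trdmt1 (-0.32, adjusted p = 0.145) and Nsun2 (-0.14, adjusted p = 0.379). DESeq2 called 0 genes of these 3 lists.

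Of 10 tested genes of late thymocyte maturation, 6 had an unadjusted p under 0.05, again beside 10.9% of all tested genes, and the median was -0.10. H2-Q7, a class I molecule gained late (0.28, adjusted p = 0.0639), and Ccr7, a receptor for homing to lymphoid tissue (-0.26, adjusted p = 0.135), had the smallest p. DESeq2 called 1 gene of this list. The part of maturation stage in the level of Slfn5 was not tested.

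Markers of other cells were low in all libraries. NK cell markers summed to 0.369 to 1.18 CPM in Ndrg3ctrl and 1.66 to 2.06 CPM in Ndrg3TKO, with no overlap. Of the 3, only Klrb1c rose, from 0.305 ± 0.232 to 1.77 ± 0.299 CPM (log2 fold change 2.62, adjusted p = 0.00149 by edgeR). Klrk1 failed the filter and had the lower mean in Ndrg3TKO, 0.121 ± 0.127 CPM beside 0.405 ± 0.209 CPM in Ndrg3ctrl. Ncr1 was at 0. B cell markers summed to 0.256 to 0.671 and 0.251 to 0.601 CPM with Ms4a1 at 0, and dendritic cell markers to 0.585 to 1.12 and 0.401 to 0.862 CPM. Thymic epithelial markers summed to 1.65 to 3.00 and 1.20 to 2.37 CPM, and those of the CD4 lineage and double-positive thymocytes to 18.5 to 29.6 and 22.8 to 31.2 CPM. Their part in the levels of the members was not tested.

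Of the 15 pairs of tested members, none had a correlation across the 8 libraries that passed adjustment over the pairs. With the genotypes pooled, the highest correlation was that of the short members Slfn1 and Slfn2, adjacent in the cluster (Pearson r 0.664, exact permutation p = 0.0774, adjusted p = 0.630; Spearman rho 0.762, exact permutation p = 0.0368, adjusted p = 0.551). It fell to an r of 0.382 without the 2 libraries farthest from the median of Slfn1. Slfn1 and Slfn8 had an r of 0.661 (exact permutation p = 0.0840, adjusted p = 0.630; rho 0.667, exact permutation p = 0.0831, adjusted p = 0.623), and an r of 0.653 without such libraries. The order differed once each group's mean was subtracted, and these values are given as a description. The r was then 0.870 for Slfn1 and Slfn5, 0.803 for Slfn1 and Slfn8, 0.721 for Slfn2 and Slfn5 and 0.702 for Slfn1 and Slfn2. With the genotypes pooled, Slfn1 and Slfn5 had an r of 0.549, which fell to 0.024 without the 2 libraries farthest from the median of Slfn1. The pooled r of Slfn2 and Slfn5 was 0.146.

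Outside the family, the genes with the pattern most like a member's were sought by Pearson r of log2 CPM over the 8 libraries, which share depth and scaling. For Slfn5 they were Bzw2 (r 0.976), Ppp2r1a (0.961) and Nsg2 (0.958), and for Slfn2 Jpt1 (0.987), Itpripl1 (0.971) and 1600014C10Rik (0.970). Those of Slfn1 were Gm7389 (0.987), Gm10080 (0.980) and Gdap2 (0.966), and those of Slfn8 Asah1 (0.984), Ykt6 (0.981) and Plcg2 (0.977). Slfn3 was closest to Pbx3 (0.985), Syne2 (0.935) and Bsdc1 (0.932), and Slfn9 to Ier5l (0.965), Mir7647 (0.939) and Polr1b (0.931). With 8 libraries and 14633 genes, values of r this high arise for many genes, 107 at or above 0.9 for Slfn8 and 34 for Slfn5. None of these 18 genes was called between the genotypes by edgeR.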

How the data were processed

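RNA of CD8SP TCRb+ MHC-I high thymocytes from 4 Ndrg3ctrl and 4 Ndrg3TKO mice was sequenced with a stranded, ribosomal RNA-depleted kit. Per the labels, the authors used cutadapt for trimming, STAR for alignment (GRCm38.p4) and featureCounts for counting, and the deposited values are raw counts, not normalized. Groups and replicate numbers came from the labels. Identifiers were matched to GENCODE M21 (GRCm38), 47224 of 47937 (98.5%).

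Counts were filtered with filterByExpr, scaled by TMM and tested with edgeR 4.0.16 (glmQLFit robust, glmQLFTest) in R 4.3.3, with Benjamini-Hochberg adjustment over 14633 genes and a threshold of 0.05. Standard errors and 95% intervals are of the fitted log2 fold change. The steps were tested on simulated data. DESeq2 1.42.0, RLE scaling, other filters, a non-robust fit, the replicate number as a block, a Y-linked covariate and leaving out each library were alternatives. RPKM used the union of GENCODE exons. Correlations used log2 of CPM plus 0.5. Promoters came from RefSeq, GRCm38.p6. Depth, 21126698 to 32668081 counts, sets counting error only, since reads carry no molecular identifiers.

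Named were all members and other Schlafen genes, Ndrg3, called neighbours, the 3 genes most like each member, and per list the called genes or the 2 with the smallest p. Members and lists were chosen with earlier results of these data known.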

Additional observations from a re-analysis of the deposited data

Results flagged for a closer look

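Of 22 sets of 4 libraries examined for 1 library far from the others, 2 had one, and chance gives about 1 in 20. Slfn8 measured 174.4 CPM in Ndrg3TKO replicate 1, whereas the other Ndrg3TKO libraries lay between 189.8 and 190.9 CPM. The mitochondrial share of counts was 0.636% in Ndrg3ctrl replicate 4, below 0.803 to 0.820% in the other controls. In Ndrg3TKO the share ran from 0.571% in replicate 4 to 0.712% in replicate 3, so the control was low only within its group. Ndrg3ctrl replicate 4 measured 81.5 CPM for Slfn5, within the range of the other controls, and 211 CPM for Slfn8, the highest control.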

How the results depend on the processing

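The number of genes called, 168, became 309 with DESeq2, 274 with no filter, 415 with the Y-linked covariate, 92 over the 5 libraries without Y-linked counts, and 90 to 158 on leaving out each library. Leaving out libraries gave 0 to 1 members called, the 1 being Slfn5 without Ndrg3ctrl replicate 2. A replicate block gave 800 called genes and 1 called member, Slfn5 at a log2 fold change of 0.29 (adjusted p = 0.0115), and 164 of the 168 genes remained called. The labels tie the numbers to no shared litter or day, and pairing was to be taken from the data only if all 4 same-numbered pairs correlated over 0.1. The lowest had r = -0.0572 and the other 3 lay between 0.240 and 0.512, and 6 of 8 libraries correlated best with their own number. This is a hint, taken from the data, of a shared factor that the labels do not name. The header numbers of the counts lie close together within replicate 1, within replicates 2 and 3, and within replicate 4. What these header numbers stand for is not given. The block also called 6 interferon-stimulated, 2 quiescence, 2 cyclin and proliferation, 2 transfer RNA and 5 late maturation genes. The covariate called 1 interferon-stimulated, 1 quiescence, 1 cyclin and proliferation and 5 late maturation genes. With no filter, 1 interferon-stimulated, 1 quiescence and 2 late maturation genes were called, and DESeq2 and the omission of Ndrg3ctrl replicate 2 or Ndrg3TKO replicate 4 each called 1 late maturation gene. The log2 fold change of Slfn1 ran from -0.0888 to 0.042 on leaving out each library, and reversed to 0.042 without Ndrg3ctrl replicate 2 and 0.0246 without Ndrg3TKO replicate 1. The level of Slfn3 became 3.97 RPKM with the longest transcript. The causes were not tested. Slfn4 was too shallow to test, and counting error is a sizeable part of the spread of Slfn3 and Slfn9.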
